A study of Mus musculus with 4 samples.

Results

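Motor neurons are specified by a small set of transcription factors, and 9 of them were examined in adult spinal motor neurons of mice transgenic for SOD1 fused to yellow fluorescent protein (YFP). They are Isl1, Isl2, Mnx1, Lhx1, Lhx3, Lhx4, Foxp1, Pou3f1 and Etv4, chosen by gene symbol among the 27189 genes quantified in each library, and each symbol had a single entry. The measure is RPKM, the reads of a gene scaled to the length of its transcript and to the mapped reads of the library, so that levels of different genes can be compared per length. All 9 factors were detected in each of the 4 libraries, and 7 reached the mean RPKM of 1 that was the minimum for the genotype test.

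Each of the 4 libraries was made from polyadenylated RNA of 3000 to 4000 motor neuron cell bodies, laser microdissected from the spinal cord of 1 mouse at 3 months of age on a C57BL/6J x SJL/J background. The 2 wild-type libraries came from strain 592, which carries human SOD1-YFP of wild-type sequence, and the 2 G85R libraries from strain 737, which carries the same construct with the G85R mutation. In both strains the transgene is a genomic fragment of human SOD1, which is not restricted to motor neurons. Strain 737 carries many more copies of it than strain 592, so that mutation, copy number and strain cannot be told apart, and no non-transgenic mice were compared here. Neurons with bright aggregates were left out of the capture in G85R mice, and the captured cells were chosen by their size and Azure B stain in the ventral horn, so that motor columns and pools were mixed.

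In the embryo, Isl1, Lhx3 and the homeodomain protein Mnx1 (HB9) establish the motor neuron fate. Isl1 and Lhx3 belong to the LIM homeodomain family, whose LIM domains bind the cofactor Ldb1, and together these proteins form a complex that activates motor neuron genes such as those for acetylcholine synthesis and transport. Lhx4 is the closest relative of Lhx3, and Isl2 that of Isl1. Later, the factors divide motor neurons into columns and pools: Lhx3 and Lhx4 are kept in the medial column that innervates axial muscle, Foxp1 marks the lateral column of the limbs, Lhx1 marks its lateral division, and Pou3f1 (SCIP) and Etv4 (Pea3) mark single motor pools.

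The 2 pairs of close relatives are shown by their most alike coding stretch, since reads from near-identical genes could be divided between them. In each pair it lies in exon 4 of 6, in the part that encodes the homeodomain. The sequences are from the NCBIM37 assembly, which UCSC names mm9, 5′ to 3′ on the strand of the gene, with the bases that differ between the 2 relatives in capitals.
Isl1 (chr13:117093440-117093469, minus strand): gtGcggactgtgctcaacgagaagcaGctg
Isl2 (chr9:55391951-55391980, plus strand): gtAcggactgtgctcaacgagaagcaActg
Lhx3 (chr2:26057890-26057919, minus strand): tgCgCgagcagctctcctccgagacCggcc
Lhx4 (chr1:157552322-157552351, minus strand): tgAgAgagcagctctcctccgagacAggcc
The longest identical run was 23 bases between Isl1 and Isl2 and 20 bases between Lhx3 and Lhx4, well below the read length of 75 bases. Over the aligned coding sequence, identity was 73.0% between Isl1 and Isl2 and 70.8% between Lhx3 and Lhx4, against 56.6% to 63.3% for the other pairs among the 5 LIM homeodomain factors. Of the stretches of 75 bases in the annotated protein-coding transcripts of the 9 factors, 0 occurred in a transcript of another protein-coding gene.

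The 9 genes lie at 9 separate places. On the minus strand are Lhx4 (chromosome 1, 157548827 to 157589157), Lhx3 (chromosome 2, 26055732 to 26063769), Mnx1 (chromosome 5, 29799578 to 29805059), Foxp1 (chromosome 6, 98875332 to 99216526), Lhx1 (chromosome 11, 84331479 to 84338923), Etv4 (chromosome 11, 101631056 to 101646685) and Isl1 (chromosome 13, 117088478 to 117099896). On the plus strand are Pou3f1 (chromosome 4, 124334889 to 124337899) and Isl2 (chromosome 9, 55386479 to 55393987). Isl2 is overlapped by the antisense gene Gm17226, and Foxp1 by Eif4e3 on the same strand. These overlaps are between whole gene spans, and whether exons overlap was not examined. Counting by strand is not stated for these libraries. Reads from any part shared by Isl2 and Gm17226 therefore cannot be told apart.

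The 4 libraries were similar in depth. The RPKM of 1 read, which is the difference between the deposited RPKM and the same value with 1 read added, had a median over genes of 0.0195 to 0.0226. The estimated reads on genes summed to 21600000 to 25200000. Motor neuron markers were abundant, with a summed RPKM of 1564 to 2101 for Chat, Slc18a3, Slc5a7, Slc10a4, Ache and Prph. RNA of other cells was also present, since markers of inhibitory and excitatory neurons summed to 186 to 217, and oligodendrocyte markers to 786 to 1027. The astrocyte markers summed to 33.8 and 37.1 in the wild-type libraries, to 124 in G85R replicate 1 and to 49.0 in G85R replicate 2. Of these sums, Gfap alone was 11.5 and 17.1, 91.9, and 28.4. The microglia markers summed to 15.3 and 17.2, 38.8, and 18.6 in the same order. G85R replicate 1 thus stood apart in the astrocyte sum, which was mostly Gfap, and in the microglia sum. It also had the lowest sum of motor neuron markers.

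**Figure D1:**
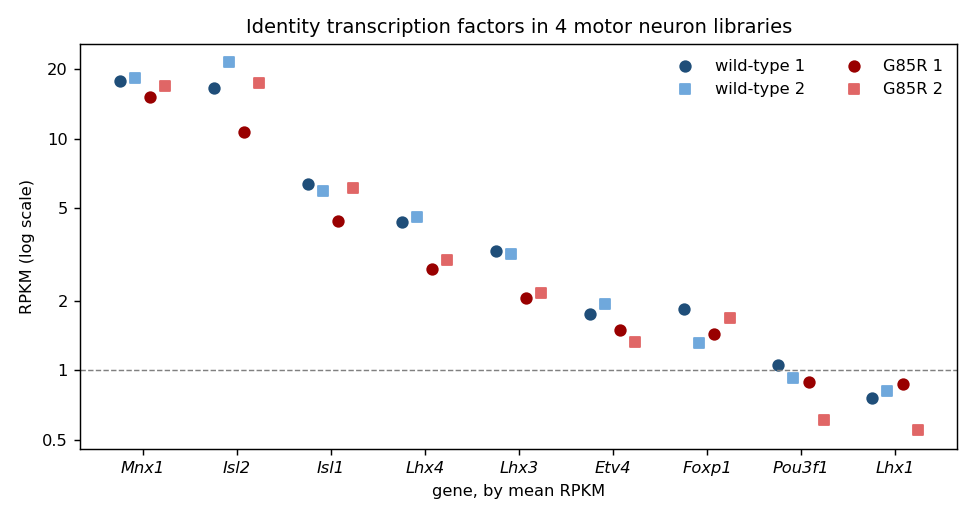
RPKM on a log scale of the 9 identity factors in each of the 4 libraries, ordered by mean RPKM, with 1 point for each library and a dashed line at an RPKM of 1. Levels run from 17.0 for Mnx1 to 0.750 for Lhx1, and both G85R points lie below both wild-type points for Mnx1, Lhx4, Lhx3, Etv4 and Pou3f1.

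The factors differed 22.7-fold in mean level. Mnx1 and Isl2 were the highest, with a mean RPKM of 17.0 and 16.5 over the 4 libraries, and overlapped each other. Isl1 followed with 5.71, then Lhx4 with 3.68 and Lhx3 with 2.67. Isl1 was above Lhx4, and Lhx4 above Lhx3, in 4 of 4 libraries, although the ranges of Isl1 and Lhx4, and of Lhx4 and Lhx3, overlapped between libraries. Etv4 (1.63) and Foxp1 (1.57) could not be ordered, each being the higher in 2 libraries. Pou3f1 (0.873) and Lhx1 (0.750) were lowest, with overlapping ranges. The ranges were separate between Isl2 and Isl1, between Lhx3 and Etv4, and between Foxp1 and Pou3f1. Mnx1, Isl2 and Isl1 together made up 77.9% of the summed level. The mean RPKM of Mnx1 was above that of 84.5% of all genes in the files, and that of Lhx1 above 55.6%.

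None of the identity factors was called different between the genotypes. Differences were tested with limma, a linear model with variances moderated across genes, on log2(RPKM + 0.1), over the 11530 genes that reached a mean RPKM of 1, and a gene was called at an adjusted p under 0.05. The fold changes on this scale understate those of genes with low RPKM. Of the 7 factors tested, 0 were called, where 0.642% of all tested genes were called, 0.373% with a lower and 0.269% with a higher level in G85R. At an unadjusted p under 0.05, 2 of the 7 passed, Lhx3 and Lhx4, both with lower RPKM in G85R, and 6.37% of all tested genes passed in that direction. In the opposite direction 0 of the 7 passed, compared with 4.66% of all tested genes. Among the genes whose mean RPKM lay in the range of the 7 factors, 7.1% passed with a lower level in G85R. The study also names a log-linear likelihood ratio test, which takes rounded RPKM as counts. It gave 0 of 9 with an adjusted and 0 of 9 with an unadjusted p under 0.05 (smallest p = 0.217 from the chi-square distribution). Over all genes, including those at or near 0, it called 0.228% and gave 1.29% an unadjusted p under 0.05. Such counts are far below the reads: Lhx4 had about 125 to 242 reads in each library, but 2.75 to 4.58 RPKM. At these levels the log-linear test could hardly call a factor, so its result does not decide whether the factors differ. With 2 libraries against 2, an exact two-sided permutation test of a single gene cannot give a p below 0.333.

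Lhx4, which acts beside Lhx3 in newly born motor neurons, stood at 4.37 and 4.58 RPKM in the first and second wild-type library, against 2.75 RPKM in the first and 3.01 RPKM in the second G85R library. The means were 4.47 ± 0.150 and 2.88 ± 0.181 (SD, n = 2 each), and the 4 values correspond to about 217, 242, 125 and 145 reads. Both G85R libraries were below both wild-type libraries, and the gap between genotypes was larger than that between replicates. The log2 fold change was -0.62 (standard error 0.15, 95% interval -0.97 to -0.27), a 1.54-fold lower level, with an unadjusted p of 0.00423 and an adjusted p of 0.171 from limma.

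Lhx3, the partner of Isl1 in the motor neuron complex, measured 3.27 and 3.18 RPKM in the wild-type mice, against 2.06 and 2.16 RPKM in the G85R mice, from about 203, 209, 117 and 130 reads. The means were 3.22 ± 0.0655 and 2.11 ± 0.0664 (SD, n = 2 each). The genotypes again did not overlap, and the replicates of each genotype lay close together. The log2 fold change was -0.59 (standard error 0.16, 95% interval -0.97 to -0.21), a 1.50-fold lower level, with an unadjusted p of 0.00828 and an adjusted p of 0.233 from limma. Among all tested genes, 2.67% had a log2 fold change at or below that of Lhx3. The log2 fold change was -0.62 to -0.56 for Lhx3 and -0.68 to -0.56 for Lhx4 when each library was left out in turn.

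Mnx1, which keeps interneuron genes silent in developing motor neurons, measured 17.8 and 18.3 RPKM in the wild-type mice, against 15.1 and 16.8 RPKM in the G85R mice. Both G85R values lay under both wild-type values, by a small margin. Its log2 fold change came to -0.18 (standard error 0.11, 95% interval -0.45 to 0.10, adjusted p = 0.665 from limma). It was -0.098 without G85R replicate 1 and -0.25 without G85R replicate 2. The interval did not reach the fitted values of Lhx3 and Lhx4.

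Isl2, a LIM homeodomain factor of postmitotic motor neurons, varied between replicates, measuring 16.6 and 21.4 RPKM in the wild-type mice, against 10.7 and 17.4 RPKM in the G85R mice. The genotypes overlapped, and the lowest value was that of G85R replicate 1, the library with the highest astrocyte and microglia sums, whose part in the value was not tested. The log2 fold change was -0.46 (standard error 0.24, 95% interval -1.02 to 0.10, adjusted p = 0.551 from limma), and without G85R replicate 1 it was -0.11, without G85R replicate 2 it was -0.80, without wild-type replicate 1 it was -0.64, and without wild-type replicate 2 it was -0.27.

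Isl1, the founding LIM homeodomain factor of motor neurons, measured 6.37 and 5.92 RPKM in the wild-type mice, against 4.41 and 6.13 RPKM in the G85R mice. Only G85R replicate 1 was low, and G85R replicate 2 lay between the wild-type values. The log2 fold change was -0.24 (standard error 0.18, 95% interval -0.66 to 0.19, adjusted p = 0.713 from limma), and -0.002 without G85R replicate 1. It was -0.47 without G85R replicate 2.

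**Figure D2:**
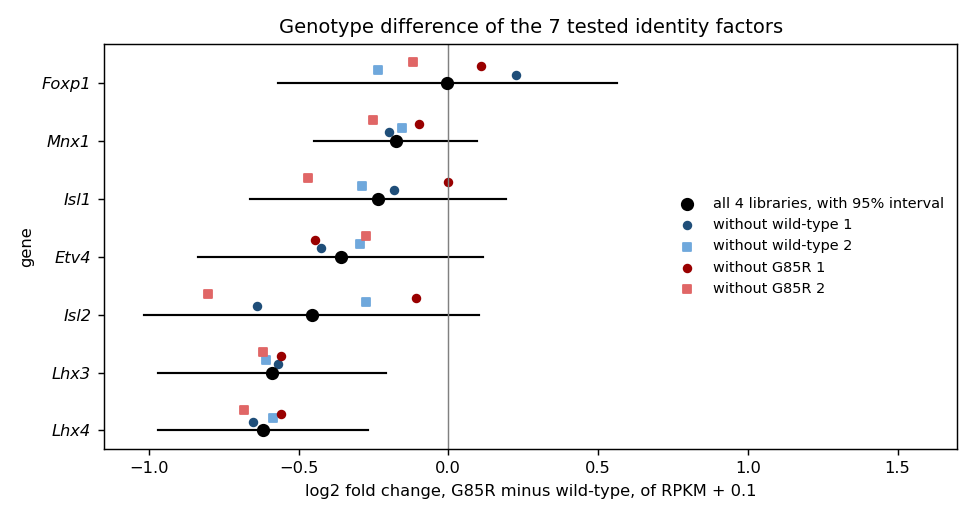
Log2 fold change, G85R minus wild-type, of RPKM + 0.1 for the 7 tested identity factors. Black points with bars are the values over 4 libraries with their 95% intervals, and colored points leave out 1 library each. The intervals of Lhx3 and Lhx4 lie below 0 before adjustment over all genes, and the values of Isl1, Isl2 and Foxp1 depend most on single libraries.

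Among the factors of columns and pools, Etv4, an ETS factor induced in motor pools by GDNF from the limb, measured 1.75 and 1.93 RPKM in the wild-type mice, against 1.50 and 1.33 RPKM in the G85R mice. The G85R values were below those of wild-type, with a log2 fold change of -0.36 (standard error 0.20, 95% interval -0.83 to 0.12, adjusted p = 0.585 from limma). Foxp1, the forkhead factor of the lateral motor column, measured 1.85 and 1.32 RPKM in the wild-type mice, against 1.43 and 1.69 RPKM in the G85R mice. Its wild-type replicates differed more than the genotypes did, and the log2 fold change was -0.004 (95% interval -0.57 to 0.56, adjusted p = 0.997 from limma), with either sign when a library was left out or the scaling was changed.

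Pou3f1 and Lhx1 had a mean RPKM below 1 and were outside the test. Pou3f1, a POU domain factor, measured 1.06 and 0.930 RPKM in the wild-type mice, against 0.895 and 0.609 RPKM in the G85R mice, and Lhx1, the LIM homeodomain factor of dorsally projecting limb motor neurons, measured 0.759 and 0.819 RPKM in the wild-type mice, against 0.872 and 0.551 RPKM in the G85R mice. The values of Pou3f1 did not overlap and those of Lhx1 did. Both rest on few reads, 52 to 93 for Pou3f1 and 43 to 70 for Lhx1. With the minimum lowered to a mean RPKM of 0.1, their log2 fold changes were -0.38 and -0.16, with adjusted p of 0.691 and 0.916 from limma.

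Read as a group, all 7 tested factors had a fitted log2 fold change below 0, where 54.7% of all tested genes did. Their median was -0.36 and that of all tested genes -0.021. Both G85R libraries were below both wild-type libraries for 4 of the 7, where 23.9% of all tested genes showed that order, and above them for 0 of the 7, where 17.3% did. In either direction 41.2% of the tested genes did not overlap, and among genes in the RPKM range of the 7 factors 27.2% lay lower in both G85R libraries. With the untested Pou3f1, 5 of the 9 factors had this order. Relative to the wild-type mean, the median of the 7 was -0.47 on the log2 scale in G85R replicate 1 and -0.11 in G85R replicate 2, while the median of all 9 was -0.27 and -0.44. The order of the G85R libraries thus depended on the 2 untested factors. Isl1, Isl2, Mnx1, Lhx3, Lhx4 and Foxp1 were lower in G85R replicate 1 than in G85R replicate 2, and Etv4, Pou3f1 and Lhx1 were lower in G85R replicate 2. Over bulk RNA of this kind, fewer motor neurons in the capture and less RNA of a gene in each motor neuron cannot be told apart.

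Ratios between factors within 1 library do not depend on the scaling of that library. The ratio of Lhx4 to Lhx3 was 1.34 and 1.44 in the wild-type libraries compared with 1.33 and 1.39 in the G85R libraries, with overlapping genotypes. Relative to Mnx1, Lhx3 was 0.184 and 0.173 in the wild-type libraries compared with 0.137 and 0.128 in the G85R libraries, and Lhx4 was 0.246 and 0.250 in the wild-type libraries compared with 0.182 and 0.179 in the G85R libraries. Both ratios were lower in each G85R library than in each wild-type library, with little difference between replicates. The ratio of Isl1 to Mnx1 was 0.359 and 0.323 in the wild-type libraries compared with 0.292 and 0.364 in the G85R libraries, and the genotypes overlapped. The ratio of Isl2 to Isl1 was 2.60 and 3.61 in the wild-type libraries compared with 2.43 and 2.84 in the G85R libraries, which also overlapped. These ratios restate the RPKM given above and were described and not tested. The share of all genes with a lower ratio to Mnx1 in both G85R libraries was not computed.

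**Figure D3:**
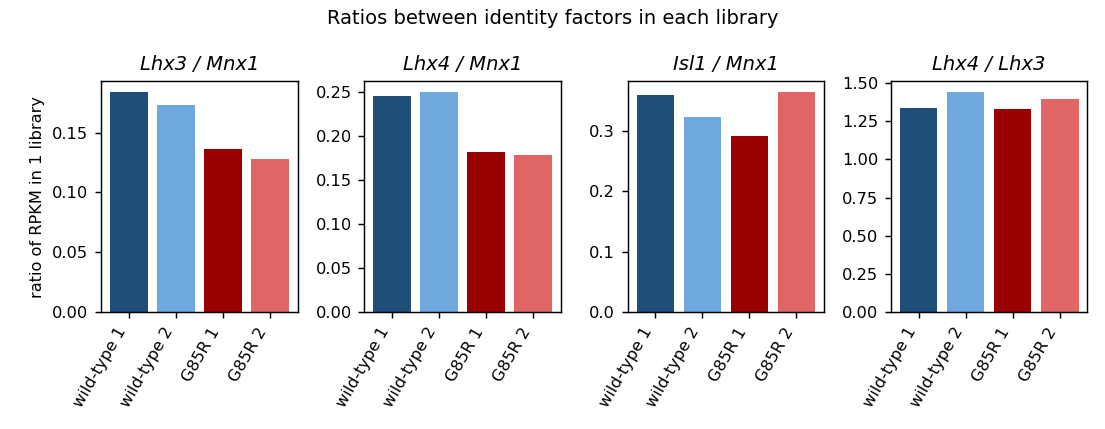
Ratio of the RPKM of 2 identity factors in each library, with bars from 0. Lhx3 and Lhx4 relative to Mnx1 were at 0.128 to 0.137 and 0.179 to 0.182 in G85R, below both wild-type libraries, while the ratios of Isl1 to Mnx1 and of Lhx4 to Lhx3 overlapped between the genotypes.

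The factors were also set against the 6 motor neuron markers, which comprise genes for acetylcholine synthesis and transport, acetylcholinesterase and peripherin. Chat, which makes acetylcholine and is a target of the Isl1 and Lhx3 complex, measured 66.3 and 81.2 RPKM in the wild-type mice, against 49.6 and 65.5 RPKM in the G85R mice (log2 fold change -0.36, adjusted p = 0.482 from limma). Of the 6 markers, Chat had the lowest mean RPKM and the most negative log2 fold change. It was named because it is a target of the complex. The vesicular transporter Slc18a3, the choline transporter Slc5a7, Slc10a4 and Ache overlapped between the genotypes. Their log2 fold changes were -0.14, 0.04, -0.15 and -0.08. Prph had -0.26 with an unadjusted p of 0.0449 from limma. Of the 6 markers, 0 were called by limma, 1 had an unadjusted p under 0.05, and the median log2 fold change was -0.14. The log-linear test called Prph lower in G85R, with an adjusted p of 0.000518. Per 100 RPKM of the geometric mean of these markers, Lhx4 was 2.02 and 1.79 in the wild-type libraries compared with 1.46 and 1.28 in the G85R libraries, and Lhx3 was 1.51 and 1.24 in the wild-type libraries compared with 1.09 and 0.916 in the G85R libraries. Of the 9 factors, 3 had both G85R values below both wild-type values on this scale. They were Lhx3 and Lhx4, which also did so in RPKM, and Isl2, which overlapped in RPKM. Mnx1, Etv4 and Pou3f1, which did not overlap in RPKM, overlapped here. The share of all genes in this order was not computed on this scale, so that the 3 of 9 cannot be set against it. After all genes were rescaled by the markers, a choice made after the data were seen, the median of all tested genes was 0.13 on the log2 scale, Lhx3 was at -0.44 and Lhx4 at -0.47 with unadjusted p of 0.189 and 0.141 from limma, and Mnx1 was at -0.018.

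**Figure D4:**
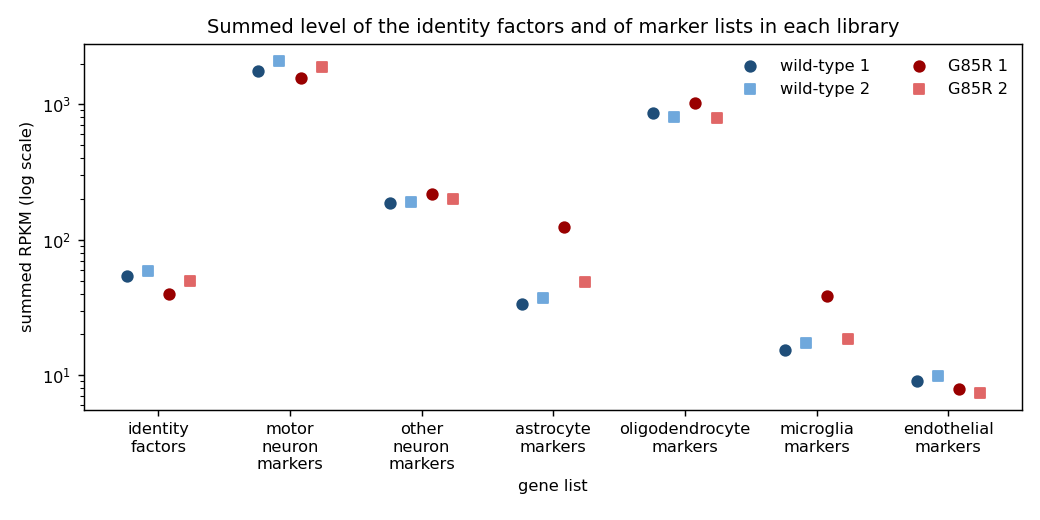
Summed RPKM on a log scale of the 9 identity factors and of the marker lists, with 1 point for each library. G85R replicate 1 had the highest astrocyte (124) and microglia (38.8) sums and the lowest sums of the identity factors (39.8) and motor neuron markers (1564). Its astrocyte sum was mostly Gfap.

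The identity factors summed to 53.8 and 58.3 RPKM in the wild-type mice, against 39.8 RPKM in G85R replicate 1 and 49.8 RPKM in G85R replicate 2, without overlap, mostly from Isl2 and Mnx1. Of the tested glial and endothelial markers 0 were called by limma. The log-linear test called Gfap, the intermediate filament of astrocytes, higher in G85R (adjusted p = 3.03e-11), and after rescaling by the motor neuron markers limma called Gfap, C1qa and Tyrobp higher, with adjusted p of 2.22e-11, 0.0111 and 0.0224. An unadjusted p under 0.05 was found for 1 of 6 astrocyte markers (Gfap, log2 fold change 1.86) and 3 of 6 microglia markers, higher in G85R, for 0 of 6 oligodendrocyte markers, and for 1 of 2 endothelial markers (Cldn5, log2 fold change -0.41). The markers of inhibitory and excitatory neurons had fitted log2 fold changes of 0.05 to 0.43, with 0 of 5 at an unadjusted p under 0.05. The endothelial markers summed to 7.38 to 9.85 in the 4 libraries. The part of these other cells in the values of the identity factors was not tested.

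The LIM homeodomain proteins act with cofactors such as Ldb1. The 10 genes listed as LIM cofactors, which include the LIM-only genes Lmo1, Lmo2, Lmo3 and Lmo4, were all expressed above the minimum. Of the 10, Ssbp3, Lmo4, Ldb1 and Lmo1 had the highest levels, with mean RPKM of 45.5, 45.4, 31.9 and 26.3, so that Ldb1 was above each LIM homeodomain factor. None was called, 4 had a log2 fold change below 0 and 6 above, and the median was 0.08. Ldb2, the relative of Ldb1, measured 6.73 and 5.63 RPKM in the wild-type mice, against 4.28 and 3.56 RPKM in the G85R mice (log2 fold change -0.65, unadjusted p = 0.0056, adjusted p = 0.194 from limma). Lmo2, a LIM-only protein that binds the same cofactors, measured 3.31 and 3.79 RPKM in the wild-type mice, against 5.23 and 4.38 RPKM in the G85R mice (log2 fold change 0.42, unadjusted p = 0.035, adjusted p = 0.414 from limma). Ldb1 itself had a log2 fold change of 0.12 and an adjusted p of 0.765 from limma. The other 7 LIM homeodomain genes, Lhx2, Lhx5, Lhx6, Lhx8, Lhx9, Lmx1a and Lmx1b, all had a mean RPKM below 1, Lhx5 being the highest with 0.977, and Lmx1a was listed at 0 in all 4 libraries.

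**Figure D5:**
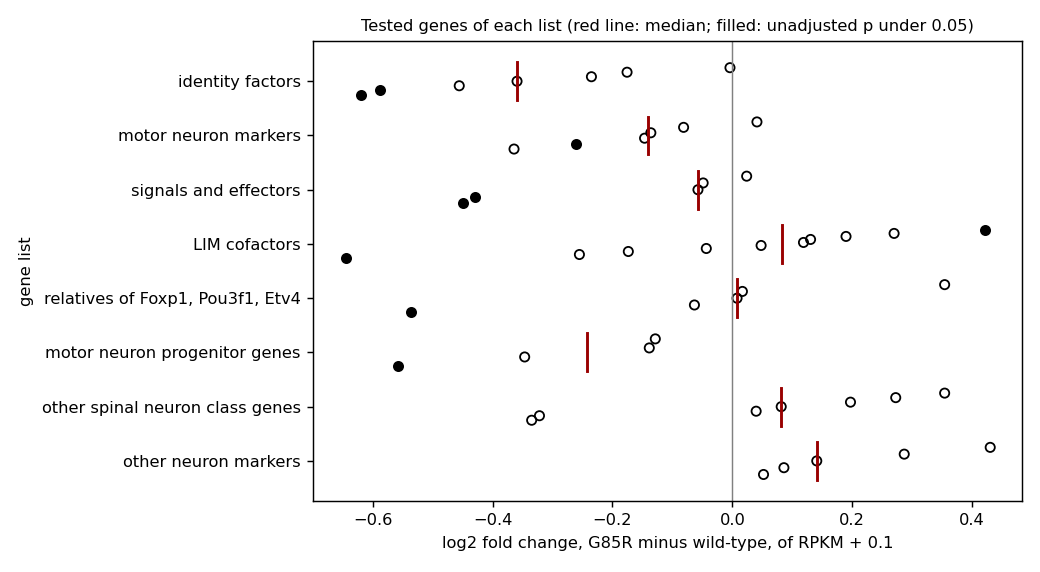
Log2 fold change, G85R minus wild-type, of RPKM + 0.1 for the tested genes of each list. Each point is a gene, filled where the unadjusted p was under 0.05, and red lines are medians. They were -0.36 for the identity factors, -0.24 for the progenitor genes and -0.14 for the motor neuron markers. The signals and effectors had -0.06, the relatives of Foxp1, Pou3f1 and Etv4 0.008, and the LIM cofactors 0.08. The genes of other spinal neuron classes had 0.08 and the other neuron markers 0.14.

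Among relatives of Foxp1, Pou3f1 and Etv4, Pou3f3, Foxp4, Etv5 and Pou3f2 had the highest levels, with mean RPKM of 9.25, 6.45, 5.55 and 2.63. Each of these was above its relative among the identity factors. Etv5 (Erm), which like Etv4 responds to GDNF, measured 6.32 and 6.85 RPKM in the wild-type mice, against 4.80 and 4.23 RPKM in the G85R mice (log2 fold change -0.54, unadjusted p = 0.0065, adjusted p = 0.206 from limma). The other tested relatives had log2 fold changes of -0.06 to 0.35, and 0 of 5 were called.

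Of the genes upstream and downstream of the factors, Ret, the signaling receptor for GDNF, measured 107 and 122 RPKM in the wild-type mice, against 81.4 and 87.9 RPKM in the G85R mice (log2 fold change -0.43, unadjusted p = 0.00597, adjusted p = 0.198 from limma). Its coreceptor Gfra1 overlapped between the genotypes, at 32.3 and 47.7 RPKM (wild-type) and 39.6 and 36.3 RPKM (G85R). Gdnf had at most 0.0411 RPKM in any library. Cdh8, a cadherin of motor pools, measured 3.61 and 3.99 RPKM in the wild-type mice, against 2.80 and 2.71 RPKM in the G85R mice (log2 fold change -0.45, unadjusted p = 0.0223, adjusted p = 0.350 from limma), and Epha4, a guidance receptor under Lhx1, had a log2 fold change of 0.02. Of the 5 tested genes of this list, 0 were called, 4 had a fitted log2 fold change below 0, and the median was -0.06.

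Genes of motor neuron progenitors were mixed in level. Olig1, Irx3, Nkx6-2 and Olig2 had mean RPKM of 30.7, 19.6, 5.36 and 5.00, while 8 of the 12 had a mean below 1, among them Nkx6-1, Pax6 and Neurog2. Olig1, Olig2 and Nkx6-2 are also oligodendrocyte genes. Irx3, a homeodomain factor that borders the motor neuron domain, measured 21.1 and 25.6 RPKM in the wild-type mice, against 14.4 and 17.4 RPKM in the G85R mice (log2 fold change -0.56, unadjusted p = 0.00714, adjusted p = 0.214 from limma). Of the 4 tested, 0 were called. All 4 had a fitted log2 fold change below 0, where 54.7% of all tested genes did, and their median was -0.24.

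Genes that mark other spinal neuron classes were mostly low, but the highest reached the mean RPKM of several identity factors, such as Lhx3 (2.67) and Etv4 (1.63). Of the 22 found, 15 had a mean RPKM below 1 and 3 were listed at 0 in all 4 libraries, and Pax2 was highest with 3.04, with En1 at 2.21 and Nkx2-2 at 1.42. Of the 7 tested genes of this list 0 were called and 0 had an unadjusted p under 0.05, and the median log2 fold change was 0.08.

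The pattern over the 4 libraries was compared with all other tested genes for Mnx1, the highest of the factors. By the Euclidean distance between log2(RPKM + 0.1), each centered on the mean of the gene, the nearest were Gnptab (0.00644), Lrpap1 (0.0140) and Fig4 (0.0174). With 4 libraries this likeness is a description of these values alone.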

How the data were processed

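The authors mapped 75-base single-end reads with Bowtie 0.12.3 (version per the submitters' processing notes) to mm9 and a splice database from UCSC Known Genes, and quantified each UCSC gene cluster with Cufflinks. The values deposited for each gene are its RPKM and the RPKM that an extra read would give. Their difference is the RPKM of 1 read, by which RPKM were divided to estimate reads. For the 4 factors with 1 transcript these were within 0.1 of whole numbers. For the others they were not, and no counting intervals were computed.

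Genotypes were compared, 2 libraries against 2, by the linear models of limma 3.58.1 with a mean-variance trend (R 4.3.3) on log2(RPKM + 0.1), with a minimum mean RPKM of 1 and Benjamini-Hochberg adjustment over all 11530 tested genes. The script was tested on simulated data. The log-linear test fitted Poisson models to the second deposited value after rounding, over all 27189 genes. Alternatives were other pseudocounts, minimum levels, scalings and variance settings, a replicate block and leaving out each library. The factors and gene lists were chosen with earlier results of these data known. From each list, the 4 highest genes and those with an unadjusted p under 0.05 were eligible to be named. Chat, Slc10a4, Gdnf, Lmx1a, Nkx6-1, Pax6 and Neurog2 were described outside this rule. Of the listed genes Sox14 had no entry, and Rlim, Drgx and Bhlhe22 were matched by older symbols. Positions are from GENCODE on NCBIM37. Python 3.11.15, pandas 2.3.3 and matplotlib 3.10.9 were used. Splicing and qRT-PCR measurements were not analysed here. For 1 gene of the lists, values are not reported here.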

Additional observations from a re-analysis of the deposited data

How the results depend on the processing

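Of the identity factors, 0 were called by limma under each alternative but 1, the replicate block, where Isl2 was called (log2 fold change -0.46, adjusted p = 0.0486) and Lhx4 had an adjusted p of 0.0512. The block also called Irx3, Ret, Gfap, Ldb2, Chat and C1qa, with adjusted p of 0.0093, 0.0126, 0.0126, 0.0249, 0.0358 and 0.0432. The study plots ratios between libraries of equal replicate number, without saying what such libraries share, and the main fit did not take the numbers as pairs. The deviations of such libraries were positively correlated across genes (0.22), and whether equal numbers share a batch was not tested. The block raised the calls over all genes from 74 to 527, which included all 74. The calls over all genes were 17 with a minimum mean RPKM of 5, 112 without a minimum, 39 after quantile normalization, 49 without a trend and 139 after rescaling by the motor neuron markers, where 60.4% of calls were higher in G85R compared with 41.9%, and the causes of these shifts were not tested. Leaving out 1 library, where the lone library is assumed to vary like the others, gave 78 to 188 calls, the most without G85R replicate 2, and 0 called factors each time.

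The median log2 fold change of the tested factors, -0.36, was below 0 under all 16 alternatives. A lower minimum, no minimum, the replicate block and the variance settings could not change it, since they leave each fold change as it was. The median was -0.24 with a pseudocount of 1, -0.24 over the 3 factors left with a minimum mean RPKM of 5, and -0.21 after rescaling by the markers. With 1 library left out it ran from -0.47 (without G85R replicate 2) to -0.11 (without G85R replicate 1), with the cause not tested. Lhx3 ranged from -0.62 to -0.44 and Lhx4 from -0.68 to -0.47. Foxp1 was positive after rescaling by the median ratio (0.018), quantile normalization (0.045) and rescaling by the markers (0.14), without G85R replicate 1 (0.11) and without wild-type replicate 1 (0.23), and -0.23 at the lowest without 1 library. No lower entry was tried, since each factor had 1 entry. Pou3f1, Lhx1 and Foxp1 each rest on under 100 reads in every library.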
